A study of Mus musculus with 18 samples.

Results

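The lipoxygenases of mouse skin were followed in RNA-seq of epidermal cells with or without Zfp36, the gene for the mRNA decay factor tristetraprolin (TTP). The genes were chosen by name and not by their values, though with earlier results of these data known. They were 7 lipoxygenases (Alox12, Alox12b, Alox12e, Alox15, Alox5, Alox8 and Aloxe3) and Alox5ap, which together made up 8 of the 52636 genes in the count table. Lipoxygenases add molecular oxygen to polyunsaturated fatty acids. In the outer epidermis, Alox12b and Aloxe3 act in sequence on linoleate bound in ceramides, a step needed for the lipid envelope of the skin barrier, and their loss causes ichthyosis. Alox12e, Alox12 and Alox8 make hydroperoxides of arachidonate, the epidermal, platelet-type and 8S enzymes, and Alox8 is known as a gene that phorbol ester induces in mouse skin. Alox5, with the helper protein encoded by Alox5ap (FLAP), makes leukotrienes in leukocytes, and Alox15 is the leukocyte-type enzyme.

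All mice were on a C57BL/6 background and carried floxed Zfp36 alleles. The controls were Zfp36 fl/fl littermates. The deleted mice, Zfp36 ΔK14 in the labels and ΔEP here, also carried a Cre transgene driven by the human keratin 14 promoter, which is active in basal keratinocytes of epidermis and follicles. Cells came from mock-treated adult skin (mock), from skin beside the papillomas of mice given DMBA and TPA (treated), and from the papillomas themselves (tumors). In this protocol the mutagen DMBA initiates tumors and the phorbol ester TPA promotes their growth. According to the study's methods, cells were sorted as EpCAM positive and negative for CD45, CD140a and CD31, while whole skin is the source named in the labels. The labels also call the treated samples treated tumoral keratinocytes, whereas the study describes nontumoral skin beside papillomas. In bulk samples, fewer cells of a type and less RNA per cell cannot be told apart.

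Each of the 6 groups had 3 columns. Replicates 2 and 3 of mock ΔEP skin held the same values and entered as 1 library, so that group has n = 2 and the set 17 libraries. Depth was 2808550 to 9617985 counts per library (median 5567614). Zfp36 itself ranged from 152 to 713 CPM (counts scaled to the size of the library) in fl/fl libraries and from 10 to 38.4 CPM in ΔEP libraries, without overlap. Some libraries stood apart in ways that touch the lipoxygenases. Fl/fl tumor replicate 1 was the shallowest, and its sebaceous gland markers summed to 610 CPM against 4760 and 8250 CPM in the other fl/fl tumors. Mock replicate 1 of each genotype had basal keratinocyte markers (5 genes) at 2680 and 2770 CPM, against 14300 to 15800 CPM in the other mock libraries, and melanocyte markers (5 genes) at 318 and 278 CPM against 41 to 92.9 CPM. Treated ΔEP replicate 1 had basal keratinocyte markers at 2850 CPM against 5590 and 11800 CPM in the other treated ΔEP libraries. Its melanocyte markers were at 364 CPM against 51.3 and 52.6 CPM. Where leaving one of these libraries out changed a call among the 8 genes, the value without it is given.

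Of the 8 genes, 6 lie in 2 compact clusters on mouse chromosome 11 (GRCm38). Aloxe3 (chr11:69125896-69149115, plus strand), Alox12b (chr11:69156989-69169792, plus strand) and Alox8 (chr11:69183932-69197843, minus strand) span 71.9 kb. Alox12 (chr11:70241457-70255353), Alox12e (chr11:70315610-70322628) and Alox15 (chr11:70344152-70352031), all on the minus strand, span 110.6 kb. Each cluster contained 3 annotated protein-coding genes, which were the lipoxygenases alone. Alox5 lies at chr6:116410077-116461178 (minus strand) and Alox5ap at chr5:149264767-149288153 (plus strand). The exons of Alox5ap share 189 bases with the antisense gene Gm19719. The use of strand and the treatment of reads shared by related genes are not given in the sources used here, so the counts of Alox5ap, and any reads shared between paralogs, are uncertain.

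The promoter table from RefSeq (GRCm38.p6) held 5 of the 8 genes, with 250 bases before and 50 bases after the annotated start. The windows of Alox12e, Alox12 and Alox8 are shown because these genes were lower in tumors, and that of Alox12b because it was not. Capitals mark the Sp1 box (GGGCGG) and the KLF box (CACCC) on either strand, and no marked letters are shared by both motifs.
Alox12e, chr11:70322481-70322780, minus strand: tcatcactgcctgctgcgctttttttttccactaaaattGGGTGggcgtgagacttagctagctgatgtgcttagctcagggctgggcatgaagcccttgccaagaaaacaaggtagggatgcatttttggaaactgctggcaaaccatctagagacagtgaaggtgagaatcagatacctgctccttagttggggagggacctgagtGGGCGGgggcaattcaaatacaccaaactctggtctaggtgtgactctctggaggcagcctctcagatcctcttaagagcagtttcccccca
Alox12, chr11:70255321-70255620, minus strand: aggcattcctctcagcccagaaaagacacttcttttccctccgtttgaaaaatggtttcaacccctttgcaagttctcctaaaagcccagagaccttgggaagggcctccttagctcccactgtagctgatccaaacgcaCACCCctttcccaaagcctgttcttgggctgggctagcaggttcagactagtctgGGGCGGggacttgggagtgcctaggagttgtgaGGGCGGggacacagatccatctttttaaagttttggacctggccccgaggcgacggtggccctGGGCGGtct
Alox8, chr11:69197794-69198093, minus strand: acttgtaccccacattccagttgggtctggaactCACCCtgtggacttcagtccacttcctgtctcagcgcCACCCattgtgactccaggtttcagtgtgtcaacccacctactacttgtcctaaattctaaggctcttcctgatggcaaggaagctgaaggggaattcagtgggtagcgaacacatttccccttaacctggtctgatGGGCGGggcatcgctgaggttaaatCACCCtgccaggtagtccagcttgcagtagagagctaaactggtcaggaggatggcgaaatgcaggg
Alox12b, chr11:69156822-69157121, plus strand: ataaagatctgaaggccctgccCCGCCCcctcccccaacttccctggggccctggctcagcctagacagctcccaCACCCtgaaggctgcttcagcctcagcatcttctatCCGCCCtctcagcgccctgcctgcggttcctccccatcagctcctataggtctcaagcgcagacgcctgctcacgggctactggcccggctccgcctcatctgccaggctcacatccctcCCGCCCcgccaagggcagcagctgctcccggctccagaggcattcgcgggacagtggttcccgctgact
All 5 windows, Alox5 included, held GGGCGG, which was found in 35.7% of 32851 promoters of this length, and all 5 held CACCC, which was found in 57.5%. There were 3 GGGCGG boxes each in Alox12 and Alox12b and 1 each in Alox12e and Alox8. None of the 5 windows contained the AP-1 site TGANTCA (7.81% of promoters), the TATA box TATAAA (13.6%) or the grainyhead box AACCNGTT (2.09%), each searched on both strands. These matches are letters in a window and describe no binding.

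TTP binds AU-rich elements in 3′ untranslated regions. The heptamer TATTTAT was found in 27.6% of 21039 genes, taking each gene's longest annotated region. Among the 8 genes only Alox5 held it, starting at base 350 of a region of 642 bases, and the site is printed with the heptamer in capitals.
Alox5 site, GENCODE annotation of GRCm38, minus strand of chromosome 6: tactttattcTATTTATgcttcctcca
The shorter pentamer ATTTA occurred 4 times in Alox12, 2 times each in Alox5 and Alox5ap, and 1 time in Alox15. Alox12e, Alox12b, Aloxe3 and Alox8 held neither motif in these regions. The pentamer was present in 65.2% of all genes.

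Alox12e was the leading lipoxygenase RNA of mock and treated skin. Scaled for exon length, it made up 62.4% to 95.9% of the summed lipoxygenase signal in CPM per kb in each of the 11 mock and treated libraries. The summed signal of the 7 enzymes was 31 ± 17.9 CPM per kb (SD, n = 3) in mock fl/fl and 25.6 ± 19.5 (SD, n = 2) in mock ΔEP skin. It was 74.2 ± 21.5 and 49.8 ± 25.2 CPM per kb in treated fl/fl and ΔEP skin (SD, n = 3 each). In fl/fl tumors the sum was 18.1 ± 11.5, and in ΔEP tumors 3.19 ± 1.38 CPM per kb (SD, n = 3 each). All 3 ΔEP tumors, at 2.11 to 4.74 CPM per kb, lay below every skin library, the lowest of which was at 11.3. Fl/fl tumor replicate 1, at 4.75 CPM per kb, lay beside the ΔEP tumors, while the other fl/fl tumors were at 24.1 and 25.3.

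**Figure D1:**
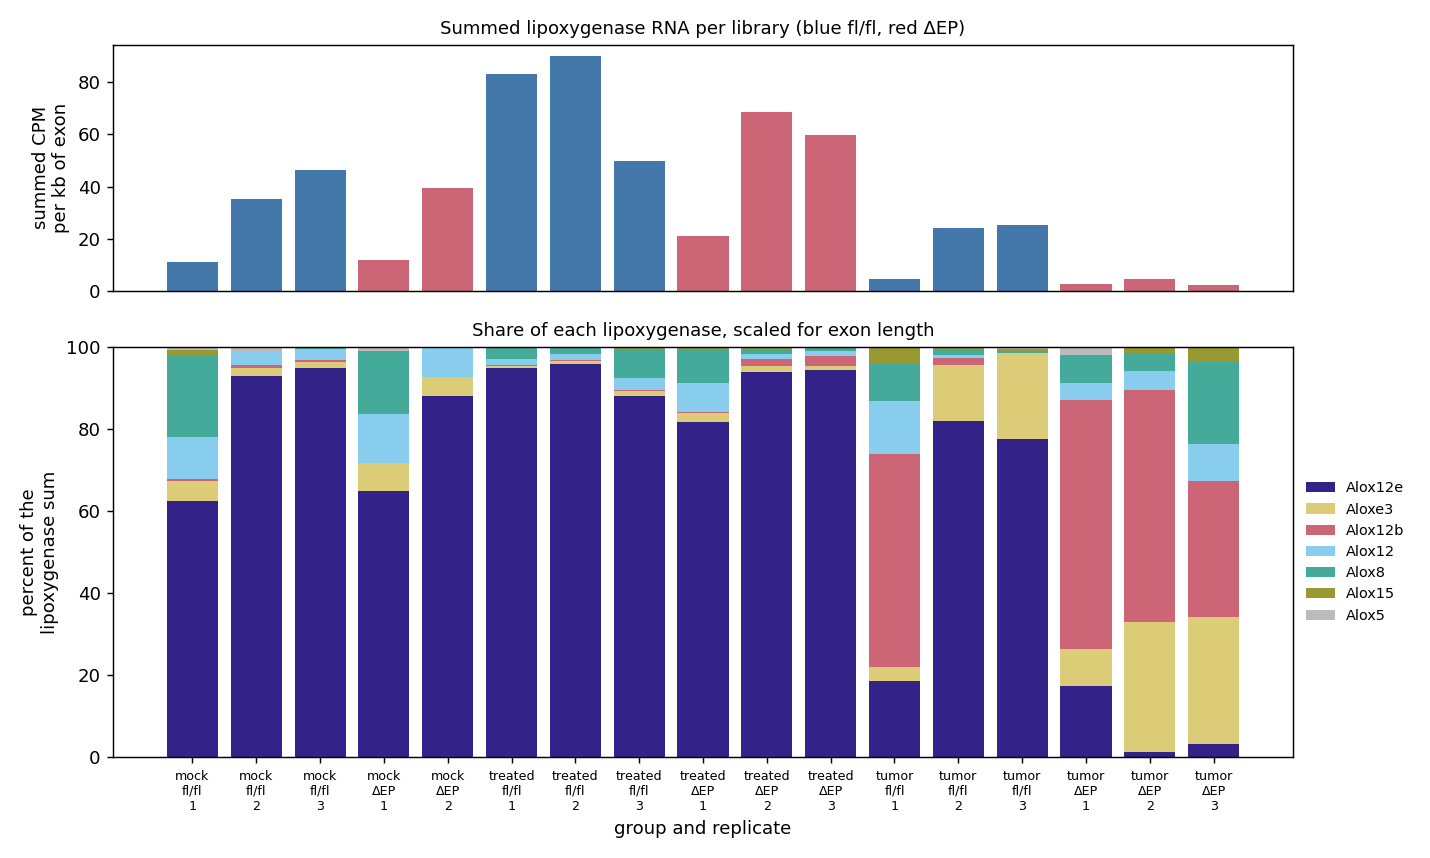
Bars give, for each of the 17 libraries, the summed lipoxygenase signal in CPM per kb of exon (top, with blue fl/fl and red ΔEP) and the share of each of the 7 lipoxygenases in that sum in percent (bottom). Alox12e fills most of every mock and treated library, 77.5% and 82% of fl/fl tumor replicates 3 and 2, and at most 18.6% of the other 4 tumors.

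The composition changed with the total. Alox12e held 18.6%, 82% and 77.5% of the per-kb signal in fl/fl tumor replicates 1 to 3, and 17.4%, 1.35% and 3.18% in ΔEP tumors. Alox12b, the barrier enzyme, held the largest share in all 3 ΔEP tumors, at 60.7%, 56.5% and 33.3% (Aloxe3 at 8.97%, 31.6% and 30.9%), and also in fl/fl tumor replicate 1, at 52%. In the other fl/fl tumors it held 1.82% and 0%. The exon length of Aloxe3 (6397 bases) counts introns that some annotated transcripts retain, so its per-kb level may be understated. The order of Alox12b and Aloxe3 in ΔEP tumor replicates 2 and 3, where Aloxe3 had more counts, depends on that length.

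Alox12e, the epidermal 12-lipoxygenase, was at 20, 92.7 and 124 CPM in mock fl/fl skin and at 21.6 and 98.1 CPM in mock ΔEP skin. In treated skin it was at 223, 244 and 124 CPM in fl/fl and at 48.6, 182 and 159 CPM in ΔEP mice. Tumors had 2.5, 55.8 and 55.5 CPM in fl/fl and 1.34, 0.181 and 0.19 CPM in ΔEP mice. The ΔEP tumors rested on 6, 1 and 1 counts, and a single count in these libraries has a 95% Poisson interval of 0.00458 to 1.01 CPM in replicate 2, which covers counting error only. Their highest value was below the lowest value of every other group. By mean, the order was treated fl/fl (197 ± 64.1), treated ΔEP (130 ± 71.3), mock fl/fl (79 ± 53.5), mock ΔEP (59.8 ± 54.1), fl/fl tumors (38 ± 30.7) and ΔEP tumors (0.57 ± 0.666 CPM, SD, n = 3, or 2 for mock ΔEP). Neighbours in this order overlapped in their values except fl/fl and ΔEP tumors.

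**Figure D2:**
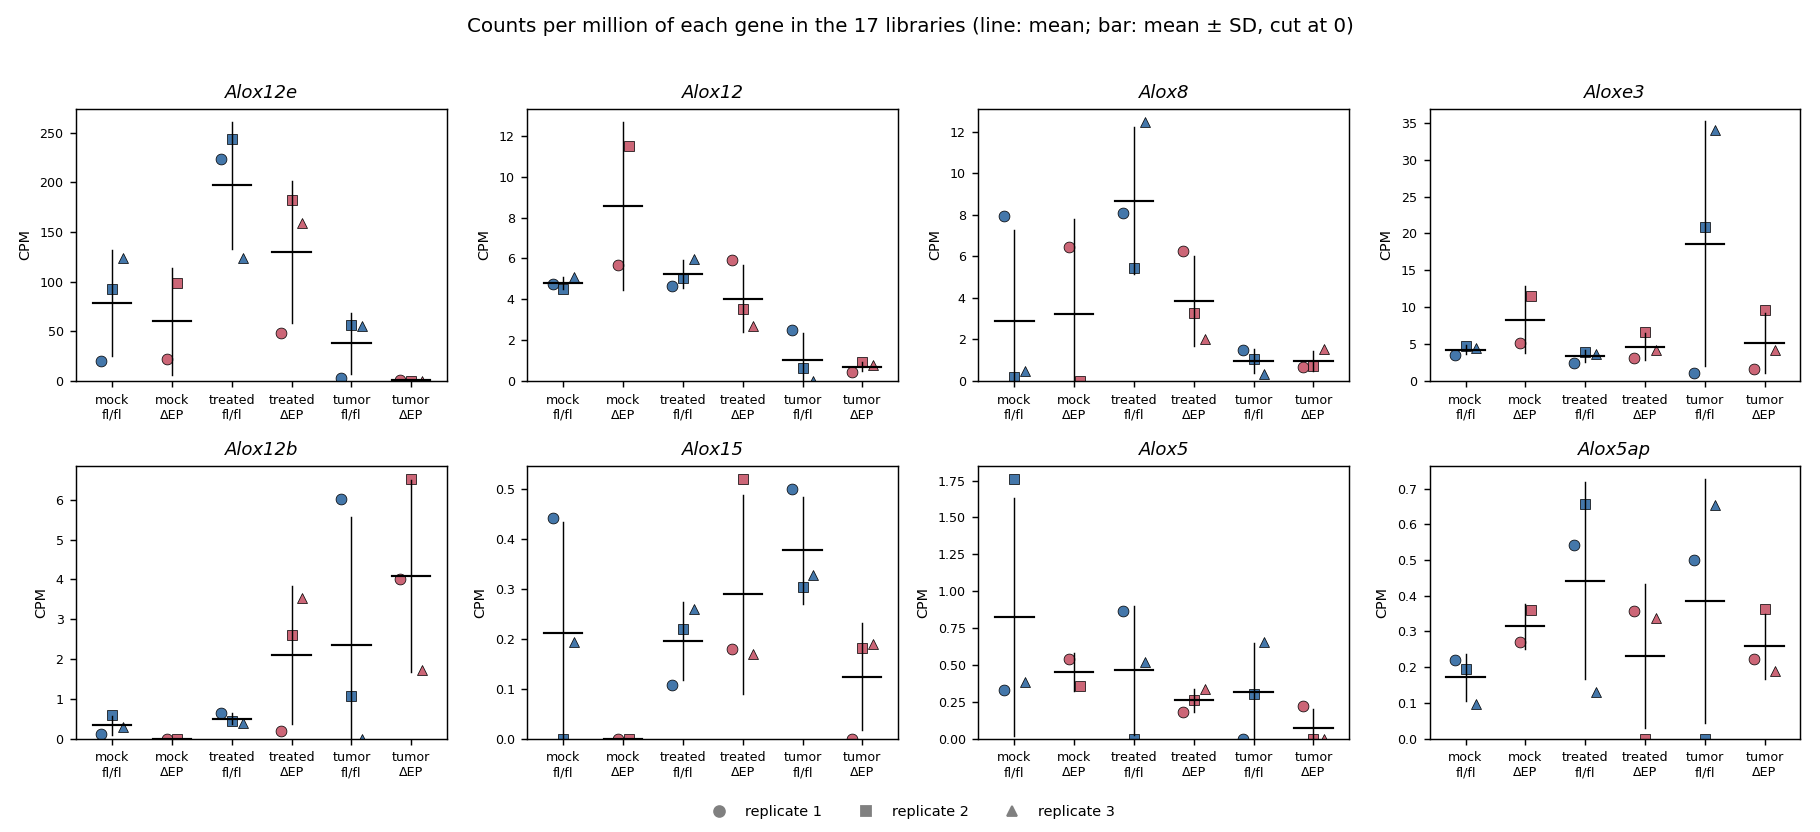
Points are CPM of each of the 8 genes in the 17 libraries by group, with replicate numbers as symbols, the mean as a line and the SD as a bar cut at 0. Each panel has its own scale from 0. Alox12e is near 0 in the 3 ΔEP tumors (0.181 to 1.34 CPM) and in fl/fl tumor replicate 1 (2.5 CPM), while Alox15, Alox5 and Alox5ap stay under 2 CPM throughout.

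Tumors were compared with treated skin to ask what changed between the skin exposed to the same agents and the papillomas. In ΔEP mice, 26% of 15289 genes tested changed by over 2-fold with an adjusted p below 0.05 (the rule for a call throughout), 15.5% lower and 10.5% higher. Of the 5 lipoxygenases tested, 3 fell (Alox12e, Alox12 and Alox8) and none rose. Alox12e had a log2 fold change of -7.98 (adjusted p = 0.00036 in edgeR's quasi-likelihood test, SE 0.76). It was called in 13 of 13 alternative analyses, with log2 fold changes of -9.38 to -7.52. The fold rests on 8 counts in all 3 ΔEP tumors, so its size is less certain than its direction.

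In fl/fl mice, 18% of 15362 genes were called between tumors and treated skin, 10.5% lower and 7.5% higher. Of 4 lipoxygenases tested, 2 fell (Alox12 and Alox8) and none rose. Alox12e did not pass there, with a log2 fold change of -2.35 (adjusted p = 0.0568 in edgeR, SE 0.76), although all 3 tumors were below all 3 treated libraries. Without fl/fl tumor replicate 1 the log2 fold change of Alox12e was -1.83 (adjusted p = 0.00208 in edgeR, SE 0.28), and 4 of the 4 lipoxygenases were called, while calls over all genes went from 2764 to 4138.

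Against mock skin, ΔEP tumors had lower Alox12e with a log2 fold change of -6.81 (adjusted p = 0.0113 in edgeR, SE 0.94), in a comparison where 14.3% of 15027 genes were called, 7.22% lower and 7.05% higher. Of 4 lipoxygenases tested, 3 were called there, Alox12e and Alox12 lower and Alox12b higher. This comparison has 2 mock libraries, and none of the 3 remained called without ΔEP tumor replicate 2 or without replicate 3, when Alox12e had adjusted p = 0.07 and 0.0545 in edgeR. Without replicate 1, 1 was called, Alox12e. The Alox12e log2 fold change was -7.5 without mock ΔEP replicate 1 and -5.28 without the other mock ΔEP library, and was called in both fits. In fl/fl mice, where 4.11% of 15394 genes were called between tumors and mock skin (1.88% lower and 2.22% higher), 0 of 3 lipoxygenases tested passed in edgeR's quasi-likelihood test. There, 2 had an unadjusted p under 0.05 and 1 was called by DESeq2 and by edgeR's exact test, namely Alox12. Over all genes, DESeq2 called 2201 in that comparison and the exact test 2058. Alox12e had a log2 fold change of -1.06 (adjusted p = 0.523 in edgeR, SE 0.96).

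The genotypes were compared within tumors to ask whether loss of Zfp36 went with another level of these genes. Alox12e was lower in ΔEP than in fl/fl tumors, with a log2 fold change of -6.25 (SE 1.17), and the groups did not overlap, but the difference missed the threshold (edgeR adjusted p = 0.175). In this comparison 0.0284% of 14067 genes passed, 0.00711% lower and 0.0213% higher. In edgeR's quasi-likelihood test 0 of 3 lipoxygenases tested were called, and 1 had an unadjusted p under 0.05. DESeq2 and edgeR's exact test each called 1, Alox12e, with adjusted p = 0.00183 and 0.000347. Over all genes, DESeq2 called 366 and the exact test 368. Over 12 alternatives the adjusted p of Alox12e ran from 1.36e-35, without a low-count filter, to 0.629.

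Leaving out 1 library changed the calls. Without fl/fl tumor replicate 1, Alox12e had a log2 fold change of -6.76 (adjusted p = 2.08e-05 in edgeR, SE 0.45) and Aloxe3 one of -2.49 (adjusted p = 0.00718 in edgeR, SE 0.51), so 2 of the lipoxygenases were called, while calls over all genes went from 4 to 2613. The change from treated skin to tumors was also tested for a difference between genotypes. For Alox12e the difference of log2 fold changes, ΔEP minus fl/fl, was -5.61 (adjusted p = 0.203 in edgeR, SE 1.3), with 0 of 5 lipoxygenases and 0.0118% of 17017 genes called, 2 of the 5 at an unadjusted p under 0.05, and 1 of the 5, Alox12e, called by DESeq2. The count over all genes by DESeq2 in this contrast is not given here. Without fl/fl tumor replicate 1 the difference for Alox12e was -6.12 (adjusted p = 0.00184 in edgeR, SE 0.85), while calls over all genes went from 2 to 1352. Taken against mock skin the difference was -5.73 (adjusted p = 0.535 in edgeR, SE 1.63), with 0% of 17388 genes called, 0 of 5 lipoxygenases called by edgeR or DESeq2 and 2 at an unadjusted p under 0.05.

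Markers of other skin compartments moved with Alox12e in the tumors. The sebaceous list of 10 genes, all in the table, summed to 577 to 1050 CPM in all mock, treated and ΔEP tumor libraries and in fl/fl tumor replicate 1, against 4760 and 8250 CPM in the fl/fl tumors where Alox12e was at 55.8 and 55.5 CPM. This sum hides members that differed between ΔEP tumors and skin. Awat2 was at 0.19 to 0.669 CPM in ΔEP tumors against 1.07 to 3.57 CPM in mock and treated skin, and Scd1 at 128 to 206 against 292 to 605 CPM. Plin2 went the other way, at 75.7 to 144 against 12.8 to 66.7 CPM. Mc5r, a melanocortin receptor of sebocytes, was at 0 in all 3 ΔEP tumors and in 2 of the 3 fl/fl tumors. Krt79, a keratin of the upper hair follicle and sebaceous duct, was at 11.5, 737 and 788 CPM in fl/fl tumor replicates 1 to 3 and at 23.2, 9.78 and 8.34 CPM in ΔEP tumors. The upper follicle list of 4 genes summed to 1490, 3200 and 2580 CPM in fl/fl and to 1360 to 1790 CPM in ΔEP tumors, and its members Krt17 (1430 to 2120 against 1240 to 1680 CPM) and Lrig1 (48.6 to 157 against 75 to 108 CPM) overlapped between the genotypes. In mock and treated skin, Krt79 ran from 71.7 to 1500 CPM. Basal keratinocyte markers went the other way, at 32800 CPM in fl/fl tumor replicate 1 and 25800 to 27800 CPM in ΔEP tumors, against 8220 and 8330 CPM in fl/fl tumor replicates 2 and 3. The part of these cell types in the Alox12e result was not tested.

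**Figure D3:**
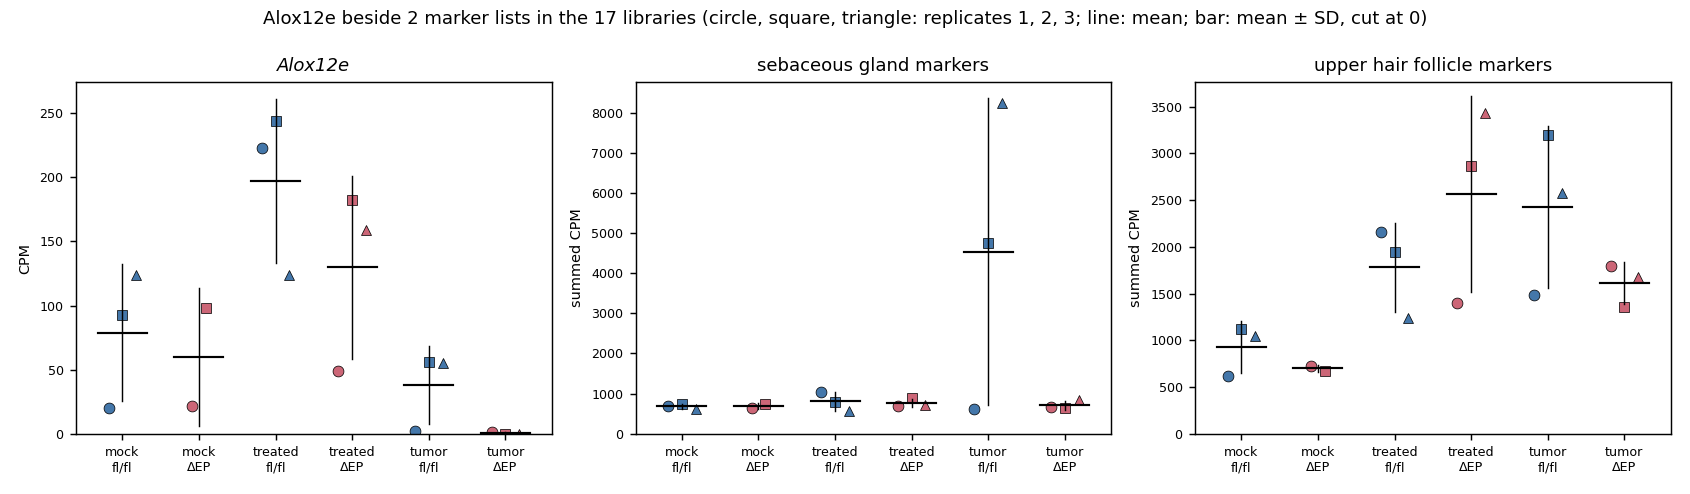
Points are Alox12e CPM (left) and the summed CPM of 10 sebaceous gland markers (middle) and 4 upper hair follicle markers (right) in the 17 libraries, with the mean as a line and the SD as a bar cut at 0. Fl/fl tumor replicates 2 and 3 are high on the sebaceous list, and fl/fl tumor replicate 1 (circle) lies with the ΔEP tumors in all 3 panels.

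Alox12, the platelet-type 12-lipoxygenase, was at 4.76, 4.5 and 5.11 CPM in mock fl/fl and at 5.66 and 11.5 CPM in mock ΔEP skin. Treated skin had 4.65, 5.03 and 5.99 CPM in fl/fl and 5.9, 3.51 and 2.7 CPM in ΔEP mice. Tumors had 2.5, 0.609 and 0 CPM in fl/fl and 0.446, 0.905 and 0.758 CPM in ΔEP mice. The tumors of each genotype were below all their treated and mock libraries, on 0 to 5 counts per tumor library.

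Alox12 fell from treated skin to tumors in both genotypes. The log2 fold change was -2.55 in ΔEP mice (adjusted p = 0.00471 in edgeR, SE 0.48), called in 13 of 13 alternatives. In fl/fl mice it was -2.66 (adjusted p = 0.036 in edgeR, SE 0.74), but the call was lost in 5 of 6 fits with a library left out, at adjusted p of 0.0827 to 0.118, and held only without fl/fl tumor replicate 1. Against mock skin it fell in ΔEP tumors, with a log2 fold change of -3.62 (adjusted p = 0.0124 in edgeR, SE 0.53). This call too was lost without any 1 of the 3 ΔEP tumors, at adjusted p of 0.059 to 0.0646. In fl/fl tumors against mock skin the log2 fold change was -2.48 (adjusted p = 0.122 in edgeR, SE 0.86). The difference between genotypes in the change from treated skin was 0.11 (adjusted p = 0.975 in edgeR, SE 1.03), a standard error too wide to show that the changes were alike.

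The 6 platelet markers, all in the table, summed to 3.51 to 9.22 CPM over all libraries, and Treml1 was at 0 in every library of all 6 groups. The list was at 3.51 to 7.84 CPM in fl/fl tumors and at 4.11 to 5.73 CPM in treated fl/fl skin. In ΔEP mice it was at 3.98 to 5.88 CPM in tumors and at 4.38 to 9.22 CPM in treated skin. The summed ranges in tumors and in treated skin overlapped in each genotype. This sum hides members that differed in ΔEP mice. Itga2b was at 1.56 to 3.03 CPM in ΔEP tumors against 3.71 to 6.63 CPM in treated ΔEP skin. Ppbp went the other way, at 1.09 to 2.27 CPM against 0. The part of platelets in the Alox12 result was not tested.

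Alox8, the 8S-lipoxygenase, was at 8.11, 5.46 and 12.5 CPM in treated fl/fl and at 6.26, 3.25 and 2.02 CPM in treated ΔEP skin. In tumors it was at 1.5, 1.07 and 0.327 CPM in fl/fl and at 0.669, 0.724 and 1.52 CPM in ΔEP mice. All tumors were below all treated libraries. Alox8 fell from treated skin to tumors with a log2 fold change of -3.23 in fl/fl mice (adjusted p = 0.00756 in edgeR, SE 0.56) and of -2.04 in ΔEP mice (adjusted p = 0.0202 in edgeR, SE 0.55). The fl/fl call held in 12 of 13 alternatives, and the ΔEP call in 9 of 13, being lost without treated ΔEP replicate 1 (0.0537) and without ΔEP tumor replicate 1 or 2 (0.0709 and 0.0787). A single fit of all libraries called neither. The difference between genotypes in this change was 1.2 (adjusted p = 0.579 in edgeR, SE 0.86). Between genotypes in treated skin, where 0.00616% of 16232 genes were called, Alox8 differed by -1.22 (ΔEP minus fl/fl, adjusted p = 0.897 in edgeR, SE 0.46) on the log2 scale.

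In mock skin Alox8 followed the replicate number more than the genotype. It was at 7.96, 0.196 and 0.482 CPM in fl/fl and at 6.47 and 0 CPM in ΔEP libraries, with 72 and 24 counts in the 2 high libraries. Both high libraries were replicate 1, where Alox12e was low (20 and 21.6 CPM). Spinous and granular markers (8 genes) summed there to 999 and 896 CPM against 7320 to 9310 CPM in the other mock libraries. Hair follicle stem cell and matrix markers (7 genes) summed there to 618 and 656 CPM, against 1660 to 2650 CPM. This lower sum was mostly Krt15, at 264 and 287 CPM against 1530 to 2530 CPM. The members Msx2, Hoxc13, Lhx2 and Lgr5 went the other way. Msx2 was at 113 and 92.8 CPM against 3.32 to 5.03 CPM, and Hoxc13 at 66.8 and 67.2 against 3.37 to 4.5 CPM. Lhx2 was at 54.3 and 55.8 against 9.64 to 17.4 CPM, and Lgr5 at 38.8 and 44.8 against 18.7 to 19.6 CPM. In treated skin Msx2 ran from 30.4 to 93.7 CPM and Hoxc13 from 27.1 to 64.8 CPM. In tumors they were at 0.327 to 2.72 and 0 to 3.65 CPM. Each treated group also had its highest Alox8 in the library where its Alox12e was lowest. These were fl/fl replicate 3 (Alox8 12.5, Alox12e 124 CPM) and ΔEP replicate 1 (Alox8 6.26, Alox12e 48.6 CPM). With all libraries, the change of Alox8 from mock to treated fl/fl skin was 1.55 on the log2 scale (adjusted p = 0.892 in edgeR, SE 1.1). Without mock fl/fl replicate 1 it was 4.51 (adjusted p = 0.00279 in edgeR, SE 0.58), in a fit where calls over all genes went from 0 to 2587. The part of cell makeup in these Alox8 values was not tested.

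The other comparisons of mock and treated skin gave no calls. Between treated and mock fl/fl skin, 0% of 16601 genes and 0 of 4 lipoxygenases passed in edgeR's quasi-likelihood test, and no lipoxygenase had an unadjusted p under 0.05 or was called by DESeq2 or the exact test. Alox12e was 1.34 higher in treated skin on the log2 scale (adjusted p = 0.888 in edgeR, SE 0.62), with overlapping values. In ΔEP mice 0% of 15891 genes and 0 of 5 lipoxygenases passed in edgeR, 1 had an unadjusted p under 0.05 (Alox12b), and DESeq2 and the exact test called 0. Between genotypes 0 of 4 lipoxygenases were called by edgeR, DESeq2 or the exact test in mock skin (0% of 15920 genes) and 0 of 4 in treated skin. An unadjusted p under 0.05 was reached by 0 of them in mock skin and by 1 in treated skin (Alox8). The change from mock to treated skin differed between genotypes in 0% of 17694 genes, and edgeR and DESeq2 called 0 of 5 lipoxygenases, with 2 at an unadjusted p under 0.05. These comparisons do not show that the groups were alike.

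Aloxe3 and Alox12b, the pair of the barrier pathway, were not called lower in tumors in any comparison with skin. Among fl/fl tumors Aloxe3, like Alox12e, was lowest in replicate 1, where Alox12b was highest. Aloxe3, the hydroperoxide isomerase eLOX3, was at 3.54, 4.69 and 4.43 CPM in mock fl/fl and at 5.13 and 11.5 CPM in mock ΔEP skin. Treated skin had 2.38, 3.93 and 3.64 CPM in fl/fl and 3.04, 6.63 and 4.21 CPM in ΔEP mice. Tumors had 1, 20.8 and 34 CPM in fl/fl and 1.56, 9.6 and 4.17 CPM in ΔEP mice. The 2 fl/fl tumors with the sebaceous signal had the highest Aloxe3 of all libraries, and the lowest was in fl/fl tumor replicate 1, on 2 counts.

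In fl/fl mice Aloxe3 was higher in tumors than in treated skin by 2.52 on the log2 scale (adjusted p = 0.06 in edgeR, SE 0.83) and than in mock skin by 2.14 (adjusted p = 0.18 in edgeR, SE 0.89), neither of which passed. Without fl/fl tumor replicate 1 both passed, at 3.03 (adjusted p = 0.00035 in edgeR, SE 0.31) and 2.67 (adjusted p = 0.0243 in edgeR, SE 0.34). In ΔEP mice the log2 fold change was 0.03 against treated skin (adjusted p = 0.97 in edgeR, SE 0.58) and -0.77 against mock skin (adjusted p = 0.491 in edgeR, SE 0.73). Between genotypes in tumors Aloxe3 had a log2 fold change of -2.03 (adjusted p = 0.371 in edgeR, SE 0.92). The change from treated skin to tumors differed between genotypes by -2.46 (adjusted p = 0.366 in edgeR, SE 1.1), and by -2.97 without fl/fl tumor replicate 1 (adjusted p = 0.0308 in edgeR, SE 0.74).

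Alox12b, the 12R-lipoxygenase upstream of Aloxe3, was nearly undetected in mock skin, with 0.111, 0.587 and 0.289 CPM in fl/fl and 0 in both ΔEP libraries, on at most 3 counts. In treated skin it was at 0.649, 0.437 and 0.39 CPM in fl/fl and at 0.179, 2.6 and 3.54 CPM in ΔEP mice. Tumors had 6.01, 1.07 and 0 CPM in fl/fl and 4.02, 6.52 and 1.71 CPM in ΔEP mice. Its 3 highest values were in ΔEP tumor replicates 1 and 2 and in fl/fl tumor replicate 1, the library in which Aloxe3 was lowest.

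Alox12b was higher in ΔEP tumors than in mock ΔEP skin, by at least 4.33-fold when mock is set to 3 counts per library (0.943 CPM; edgeR adjusted p = 0.0392). The call was lost without ΔEP tumor replicate 3 (edgeR adjusted p = 0.0587), and without replicate 1 or 2 the gene was under the count filter. Against treated ΔEP skin the log2 fold change was 0.84 (adjusted p = 0.401 in edgeR, SE 0.74), and between genotypes in tumors it was 0.95 (adjusted p = 0.702 in edgeR, SE 0.98). The mean of treated ΔEP skin was at least 2.23-fold above mock ΔEP skin with the same floor, and was not called (edgeR adjusted p of 1). Treated ΔEP replicate 1, at 0.179 CPM, lay below that floor. In the comparisons of fl/fl stages Alox12b was under the count filter and was not tested.

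**Figure D4:**
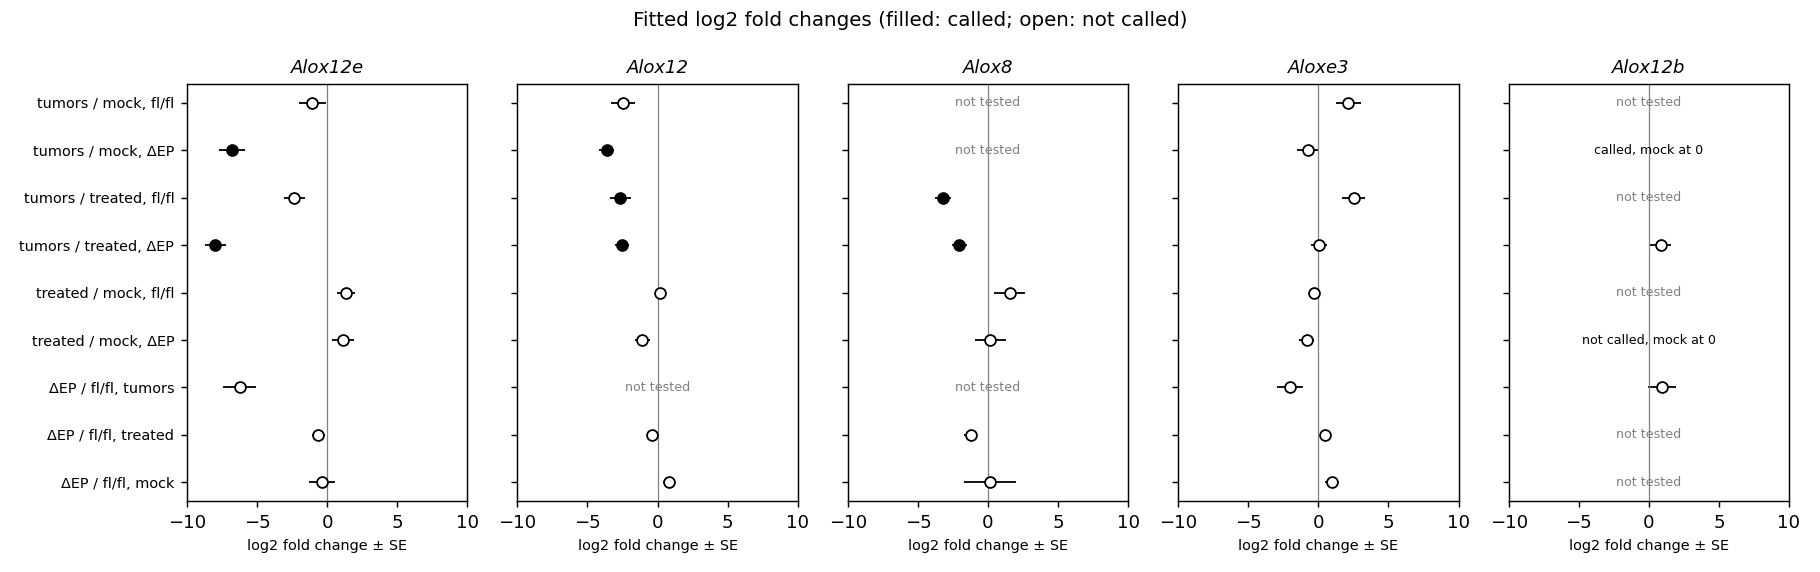
Points are fitted log2 fold changes with their standard errors for the 5 genes tested in at least 1 of 9 comparisons of groups (rows, the group named first over the second), with called ones filled. Alox12e, Alox12 and Alox8 lie left of 0 in all tumor comparisons where they were tested, while Aloxe3 is right of 0 in fl/fl tumors and near 0 in ΔEP tumors against treated skin.

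The leukocyte-type genes stayed at the limit of detection. Alox5 had 0 to 9 counts per library, Alox5ap 0 to 5 and Alox15 0 to 4, so none was tested in any comparison. Alox5 was at 0.332, 1.76 and 0.386 CPM in mock fl/fl skin, its highest group by mean, and at 0.223, 0 and 0 CPM in ΔEP tumors. A count of 0 in these ΔEP tumor libraries allows up to 0.543 and 0.569 CPM, taken as 3 counts. Alox5ap was at 0.0964 to 0.221 CPM in mock fl/fl skin and at 0.19 to 0.362 CPM in ΔEP tumors. Alox15 was at 0 in both mock ΔEP libraries and reached 0.52 CPM in treated ΔEP replicate 2. Leukocyte markers (9 genes, with Cd3e and Tyrobp at 0 in fl/fl tumors) summed to 58.8 to 85.9 CPM in ΔEP tumors, to 13.7 to 34.1 CPM in fl/fl tumors and to 175 CPM in 1 treated ΔEP library. Most of these sums was Cd74, a chaperone of MHC class II, at 54.8 to 83.5 CPM in ΔEP tumors, 10.7 to 28.5 CPM in fl/fl tumors and 172 CPM in that treated library, while Ptprc, the gene for CD45, was at 0 to 1.5 CPM in the tumors. Their part in these few counts was not tested.

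The genes whose pattern was most like each lipoxygenase were ranked by the root mean square difference of centered log2 CPM over the 17 libraries, among 18251 other genes. For Alox12e they were Tril (1.06), Krt79 (1.2) and Gata6 (1.22), beside an SD of 2.9 for Alox12e itself. Tril was at 0, 8.52 and 9.47 CPM in fl/fl tumors and at 0, 0.181 and 0 CPM in ΔEP tumors, against 9.94 to 32.8 CPM in treated skin. For Alox12 they were Hopx (0.517), Foxn1 (0.521), a transcription factor of keratinocyte and hair differentiation, and Fzd10 (0.549). Foxn1 averaged 12.9 to 19.1 CPM in the 4 skin groups and 2.73 and 2.42 CPM in fl/fl and ΔEP tumors. For Alox8 they were Hes2 (0.559), Slc13a5 (0.577) and Dio3 (0.607), for Aloxe3 Gm37069 (0.44), Apol6 (0.565) and Neat1 (0.57), and for Alox12b Adamts5 (0.614), Cnfn (0.821) and Elf3 (0.835). Cnfn, a cornified envelope gene, averaged 0.18 to 1.81 CPM in skin, 5.04 CPM in tumors of fl/fl mice and 12.4 CPM in those of ΔEP mice. These are rankings over libraries that share depth and cell makeup and carry no test.

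The 16 other genes of the lipid envelope pathway were counted beside the barrier pair. From treated skin to tumors, 4 rose and 0 fell of 15 tested in fl/fl mice (median log2 fold change 0.6, against -0.02 for all genes), and 4 rose and 2 fell of 16 tested in ΔEP mice (median 0.17 against -0.03). From mock skin to tumors, 2 rose and 0 fell of 15 in fl/fl mice (median 0.59 against -0.05), and 3 rose and 0 fell of 16 in ΔEP mice (median 0.33 against -0.06). Of all genes tested, 7.5% rose and 10.5% fell from treated skin to fl/fl tumors, and 10.5% rose and 15.5% fell to ΔEP tumors. From mock skin, 2.22% rose and 1.88% fell to fl/fl tumors, and 7.05% rose and 7.22% fell to ΔEP tumors. Ugcg, the glucosylceramide synthase, was at 120, 277 and 257 CPM in ΔEP tumors against 27.9, 40.3 and 34.4 CPM in treated ΔEP skin. It rose by 2.56 on the log2 scale there (adjusted p = 0.00103 in edgeR, SE 0.32) and by 1.88 in fl/fl mice (adjusted p = 0.00404 in edgeR, SE 0.27). Lipn, an epidermal lipase, rose from treated skin to tumors by 4 in fl/fl mice (adjusted p = 0.00393 in edgeR, SE 0.57) and by 2.39 in ΔEP mice (adjusted p = 0.0304 in edgeR, SE 0.72). Tgm1, the transglutaminase of the cornified envelope, rose between the same groups by 1.78 in fl/fl mice (adjusted p = 0.00249 in edgeR, SE 0.22) and by 1.38 in ΔEP mice (adjusted p = 0.00669 in edgeR, SE 0.28). Degs2, which hydroxylates ceramides, fell from treated skin to tumors in ΔEP mice, with a log2 fold change of -1.85 (adjusted p = 0.00255 in edgeR, SE 0.3).

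A list of 17 genes for enzymes and receptors of leukotrienes, hydroxy fatty acids and other oxidized lipids was counted in the same way. From treated skin to tumors, 1 rose and 2 fell of 11 tested in fl/fl mice (median 0.68 against -0.02 for all genes), and 1 rose and 2 fell of 10 in ΔEP mice (median 0.36 against -0.03), beside 18% and 26% of all genes called. From mock skin to tumors, 0 were called of 10 in fl/fl mice (median 0.38 against -0.05) and 1 rose of 9 in ΔEP mice (median 0.52 against -0.06). Beside them, 4.11% and 14.3% of all genes were called. Ggt1, a gamma-glutamyl transferase that cleaves leukotriene C4, fell from treated skin to tumors in both genotypes, with log2 fold changes of -5.24 in fl/fl (adjusted p = 0.00191 in edgeR, SE 0.59) and -4.02 in ΔEP mice (adjusted p = 0.003 in edgeR, SE 0.68). In mock skin Ggt1 showed the split of Alox8, at 13.4, 0 and 0 CPM in fl/fl and 11.6 and 0.359 CPM in ΔEP libraries.

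Ephx2, the soluble epoxide hydrolase, was at 4.51, 129 and 81.3 CPM in fl/fl tumors and at 2.23, 2.72 and 2.46 CPM in ΔEP tumors, against 2.68 to 14.3 CPM in treated skin. The fl/fl tumors high in Ephx2 were those with the sebaceous signal. From treated skin to tumors it rose in fl/fl mice by 2.91 on the log2 scale (adjusted p = 0.0439 in edgeR, SE 0.87), and it fell in ΔEP mice, with a log2 fold change of -2.18 (adjusted p = 0.0199 in edgeR, SE 0.59). The difference between genotypes in this change was -5.07 (adjusted p = 0.203 in edgeR, SE 1.18) and did not pass. Without fl/fl tumor replicate 1, Ephx2 rose by 3.46 in fl/fl mice (adjusted p = 0.000115 in edgeR, SE 0.26), and the difference between genotypes was -5.6 (adjusted p = 0.001 in edgeR, SE 0.68). Ltb4r1, a receptor for leukotriene B4, rose from treated skin to tumors in ΔEP mice by 1.77 (adjusted p = 0.00757 in edgeR, SE 0.38). Against mock ΔEP skin its change of 1.25 did not pass (adjusted p = 0.36 in edgeR, SE 0.89). Mgst2 rose from mock skin to ΔEP tumors by 2.24 (adjusted p = 0.0215 in edgeR, SE 0.42). Against treated ΔEP skin its change of 0.87 did not pass (adjusted p = 0.21 in edgeR, SE 0.51).

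The 15 phospholipases A2, which release fatty acids from membranes, gave 1 rise and 0 falls of 8 tested from treated skin to fl/fl tumors (median -0.16 against -0.02 for all genes) and 0 rises and 1 fall of 8 to ΔEP tumors (median -0.75 against -0.03). From mock skin 1 rose of 7 tested in each genotype (median 0.54 against -0.05 in fl/fl and -0.83 against -0.06 in ΔEP mice). Of all genes tested, 18% and 26% were called from treated skin to fl/fl and ΔEP tumors, and 4.11% and 14.3% from mock skin. Pla2g4e was at 22, 51 and 80 CPM in fl/fl tumors and at 22.8, 61.2 and 52.3 CPM in ΔEP tumors, against 0.809 to 2.16 CPM in mock skin. It rose from mock skin by 5.27 in fl/fl (adjusted p = 0.00781 in edgeR, SE 0.57) and by 4.87 in ΔEP mice (adjusted p = 0.0112 in edgeR, SE 0.67). Pla2g2f, an epidermal secreted phospholipase, fell from treated skin to ΔEP tumors, with a log2 fold change of -2.7 (adjusted p = 0.00482 in edgeR, SE 0.51). None of the 3 lists had a call by edgeR's quasi-likelihood test between genotypes, between treated and mock skin, or in the tests of a difference between genotypes.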

How the data were processed

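The authors deposited raw counts per gene for 18 columns, a file they called FeatureCount. The submitters' processing notes list Trimmomatic 0.36, STAR 2.5.3, HTSeq 0.9.1, DESeq2 and build mm10, without roles. Annotation release, strand setting and duplicate removal are not given in the sources used here. Columns of the authors' own comparisons were not used. Libraries came from sorted cells with the Ovation SoLo kit.

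The main test was the two-sided quasi-likelihood F test of edgeR (edgeR 4.0.16, limma 3.58.1 and DESeq2 1.42.0 under R 4.3.3). Each comparison used its own groups, with filterByExpr at a minimum count of 10, TMM scaling and Benjamini-Hochberg adjustment over all genes tested. Calls needed an adjusted p below 0.05 and a change of over 2-fold. CPM use TMM-scaled totals, log2 CPM a prior count of 2, and CPM per kb the union of exons in GENCODE of GRCm38, which is mm10. A difference between genotypes was a contrast over 4 groups. Intervals cover counting error only. Neither labels nor methods say that replicates were separate animals, so p-values measure the spread between these samples, which may be technical.

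All 8 genes were described whatever their values. Lists named up to 4 genes each, those called in most comparisons. The genes and lists were chosen with earlier results of these data known. Procedures were tested on simulated data. Alternatives were DESeq2, edgeR's exact test, RLE scaling, 1 fit of all libraries, no filter, a mean count of at least 10, a replicate block and each library left out.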

Additional observations from a re-analysis of the deposited data

How the results depend on the processing

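No call among the 8 genes changed direction under any alternative. Of 707 alternative fold changes, 628 kept their side of the threshold and their sign, 17 lost a call, 29 gained one and 33 changed sign without being called. Between genotypes in tumors 0 calls became 1 with DESeq2, the exact test or 1 fit of all libraries and 2 with no filter. Calls over all genes were 366, 368, 122 and 1393 in that order, against 4 in the main test. Between tumors and mock fl/fl skin 0 became 1 with DESeq2, the exact test or 1 fit of all libraries and 2 with no filter. Calls over all genes were 2201, 2058, 3205 and 2595, against 632. Between tumors and treated fl/fl skin 2 became 4 with DESeq2, the exact test or no filter, and 1 (Alox8) with the replicate block. Calls over all genes were 3224, 3582, 4316 and 1831, against 2764. Differences between genotypes became 1 with no filter for tumors against mock skin, and 1 with DESeq2 and 2 with no filter for tumors against treated skin. Over all genes, the main test called 0 and 2 in these contrasts. The counts over all genes in the alternative fits are not given here, so these gains are not read as particular to the lipoxygenases. The cause was not tested.

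With each library left out, calls ran from 0 to 2 between genotypes in tumors (0 to 2613 over all genes). They ran from 0 to 1 for treated against mock fl/fl skin (0 to 2587 over all genes) and for tumors against mock fl/fl skin (30 to 3277). For tumors against treated fl/fl skin they ran from 1 to 4 (1106 to 4138). With a tumor left out, they ran from 0 to 1 for tumors against mock ΔEP skin. They ran from 2 to 3 for tumors against treated ΔEP skin. For the difference between genotypes from treated skin to tumors they ran from 0 to 2. Ranges over all genes for these ΔEP comparisons and this difference are not given here. Calls among the 8 genes stayed at 0 in the other comparisons. A fit that left 1 mock ΔEP library assumes that it varies like the other group.

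Same-numbered libraries did not deviate together in every pair of any comparison with 3 pairs (correlations from -0.55 to 0.39), so the numbers were not taken as pairing. Comparisons with 2 pairs are too few for this check, at 0.78 and 0.57 between genotypes in mock skin, 0.57 and 0.14 for treated and 0.09 and 0.12 for tumors against mock ΔEP skin. The replicate block moved the count of calls among the 8 genes only as given above. Alox12 and Alox8 in tumors rest on 0 to 8 counts per library, and Alox5, Alox5ap and Alox15 could not be tested at this depth.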
